A study of Mus musculus with 24 samples.

Results

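The genes described here are 39 interferon stimulated genes, chosen by symbol from a list of well-known targets of interferon and found, all 39, among the 37606 genes of the count table from mouse aortas. By textbook knowledge 29 of them are targets mainly of type I interferon (interferons alpha and beta), such as Isg15, the Ifit, Oas and Mx families and Rsad2. The other 10 are gamma-type members, which interferon gamma is known to induce strongly: Irf1, Gbp2, Gbp3, Gbp7, Igtp, Iigp1, Irgm1, Psmb8, Psmb9 and Tap1. The split is not strict, since many of these genes answer both kinds of interferon. Every member had reads in all 24 libraries (the lowest count was 6), and all 39 passed the filter on low counts in each of the 7 comparisons made.

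The mice were wild type (WT) and had received angiotensin II (Ang II), the pressor peptide of the renin system, or only vehicle (sham) from an osmotic minipump for 2 weeks. Aortas were taken and homogenised 2, 4 or 6 months after the infusion, which gave 6 groups of 4 libraries: sham and Ang II at each of the 3 times. The series is about Axl, a receptor tyrosine kinase, in the remodeling of the aorta after hypertension. Each comparison of Ang II with sham below asks whether the members differed after the hypertensive episode was over. Nothing in the labels says whether the 4 libraries of a group came from separate animals, so the spread that enters a p-value is that between libraries and may be technical. Strain, age and any pooling of aortas were not stated in the sources used here.

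Interferons are cytokines that cells release when they sense viral nucleic acid or when T and NK cells are activated. Type I interferon binds the receptor of Ifnar1 and Ifnar2 and assembles a complex that includes Stat2 and Irf9 and binds the interferon stimulated response element (ISRE) in promoters. Interferon gamma binds the receptor of Ifngr1 and Ifngr2 and leads to binding at the gamma activated site (GAS), and it induces the factor Irf1, which also binds ISRE-like elements. In the vessel wall such genes are known to be expressed at a resting level by endothelial cells, smooth muscle cells, fibroblasts and resident macrophages.

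The promoters of 7 members are shown because they carry the elements through which the genes are known to be controlled, and because most of these members return in the results. RefSeq (GRCm38.p6, the same primary assembly as mm10) had a promoter for 29 of the 39 members. Each line gives 120 bases, which end 1 base before the annotated start, or for Ifit1 run from 138 to 19 bases before it, read 5′ to 3′ on the strand of the gene, in lower case. Capitals mark matches of the ISRE core, GAAANNGAAA on either strand, and of the GAS, TTCNNNGAA, which reads the same on both strands. Overlapping matches were kept.
Isg15 (chr4:156200819-156200938, - strand): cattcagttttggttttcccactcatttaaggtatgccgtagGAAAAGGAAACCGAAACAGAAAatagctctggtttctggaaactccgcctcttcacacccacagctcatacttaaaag
Ifit1 (chr19:34640751-34640870, + strand): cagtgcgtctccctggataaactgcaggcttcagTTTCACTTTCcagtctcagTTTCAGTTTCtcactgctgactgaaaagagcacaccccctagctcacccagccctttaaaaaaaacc
Rsad2 (chr12:26456453-26456572, - strand): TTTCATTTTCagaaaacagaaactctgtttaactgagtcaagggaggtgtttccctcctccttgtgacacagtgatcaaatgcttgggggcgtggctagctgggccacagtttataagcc
Oas1a (chr5:120907526-120907645, - strand): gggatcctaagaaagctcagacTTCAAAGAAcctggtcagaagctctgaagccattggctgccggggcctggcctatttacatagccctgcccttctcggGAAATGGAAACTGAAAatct
Gbp7 (chr3:142530216-142530335, + strand): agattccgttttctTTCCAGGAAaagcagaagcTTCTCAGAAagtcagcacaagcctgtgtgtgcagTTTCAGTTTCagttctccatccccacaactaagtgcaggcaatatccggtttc
Igtp (chr11:58199436-58199555, + strand): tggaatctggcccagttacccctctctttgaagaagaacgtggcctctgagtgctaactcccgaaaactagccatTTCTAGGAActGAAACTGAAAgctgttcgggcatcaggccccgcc
Irf1 (chr11:53769894-53770013, + strand): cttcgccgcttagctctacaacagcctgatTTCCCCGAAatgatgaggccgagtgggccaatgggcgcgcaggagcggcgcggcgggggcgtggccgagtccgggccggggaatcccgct
In Isg15 3 ISRE cores overlapped between 78 and 57 bases before the start. Oas1a had 2 overlapping cores that ended 5 bases before the start, and a GAS farther upstream. Gbp7 and Igtp had both kinds of element, Rsad2 and Ifit1 showed the ISRE core alone, and Irf1 showed a GAS alone. Over the 250 bases before the start, the ISRE core was present in 15 of the 29 members (51.7%), against 3.46% of 27025 genes with a promoter. The share was 50% of the 20 type I members and 55.6% of the 9 gamma-type members. The GAS was present in 7 of 29 members (24.1%), with 15% of the type I and 44.4% of the gamma-type members, against 8.13% of all genes. Both kinds of element were present in 4 members. Cmpk2, a neighbour of Rsad2, had neither set of letters in its window. These are matches of letters and no test was made of them.

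Depth ranged from 19.16 to 58.68 (in 1e6 counts) per library. The 8 libraries at 6 months were of another kind than the earlier 16, with 31.75% to 59.31% of their counts from the mitochondrial chromosome against 7.72% to 16.32%, so levels at 6 months cannot be told apart from the kind of library and are compared only within that time. Smooth muscle markers (summed level 641 to 6803 CPM over the 24 libraries) and endothelial markers (738 to 1224 CPM) were present in each library, as the label aorta requires, beside a large share of adipocyte transcripts (5557 to 23627 CPM). CPM are counts per 1e6 counts, scaled by the trimmed mean of M-values (TMM) over all 24 libraries. Transcripts of airway epithelium reached from 48.5 to 9872 CPM, also within groups, and the results at 2 months are given below with and without the 3 libraries of that time known from earlier results to hold most of them.

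In sham aortas at 2 and 4 months the members spanned a wide range of levels. Ifi27l2a, which encodes a small interferon-inducible membrane protein (chromosome 12, 103442167 to 103443680, mm10, minus strand), stood far above the others, at 1904 CPM per kb of exon. It alone made up 47.96% to 69.16% of the summed CPM of the 39 members in the libraries of 2 and 4 months. Bst2, the membrane protein tetherin that holds budding virus particles on the cell (chromosome 8, 71534255 to 71537456), followed at 53.0 CPM per kb. Next came Gbp2, a guanylate binding protein that acts on vacuoles of pathogens, at 16.8 CPM per kb, then Ifi35 at 13.1, Psmb8 at 12.5, Igtp at 12.1 and Irf1 at 11.2 CPM per kb. The lowest levels were those of the dynamin-like antiviral GTPases Mx1 and Mx2, at 0.292 and 0.260 CPM per kb, and of Oas3, an oligoadenylate synthetase, at 0.111 CPM per kb. All 10 gamma-type members were among the 20 highest per length, and the 19 members below them were all of type I. The spread between replicate libraries was near that of other genes: the median SD of log2 CPM within groups of 2 and 4 months was 0.26 over the members and 0.30 over 19218 genes, and 16 of 39 members were above the latter.

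Some members share sequence with other genes, and how such reads were counted is not given in the sources used here. Of the 50-base stretches in the exons of Oas1a, 57.6% were also in Oas1g or a near copy. The shares were 51.2% for Ifit3, which is nearly a copy of Ifit3b, and 45.0% for Ifit3b. Gbp7 (12.7%), Igtp (11.8%) and Rtp4 (11.6%) had smaller shares, and the other 33 members were below 10%. Psmb9 and Tap1 start 211 bases apart on opposite strands of chromosome 17 and overlap in their exons, so without strand their reads cannot be told apart there. Values of Oas1a, Ifit3, Ifit3b and of that pair are uncertain for these reasons.

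**Figure D1:**
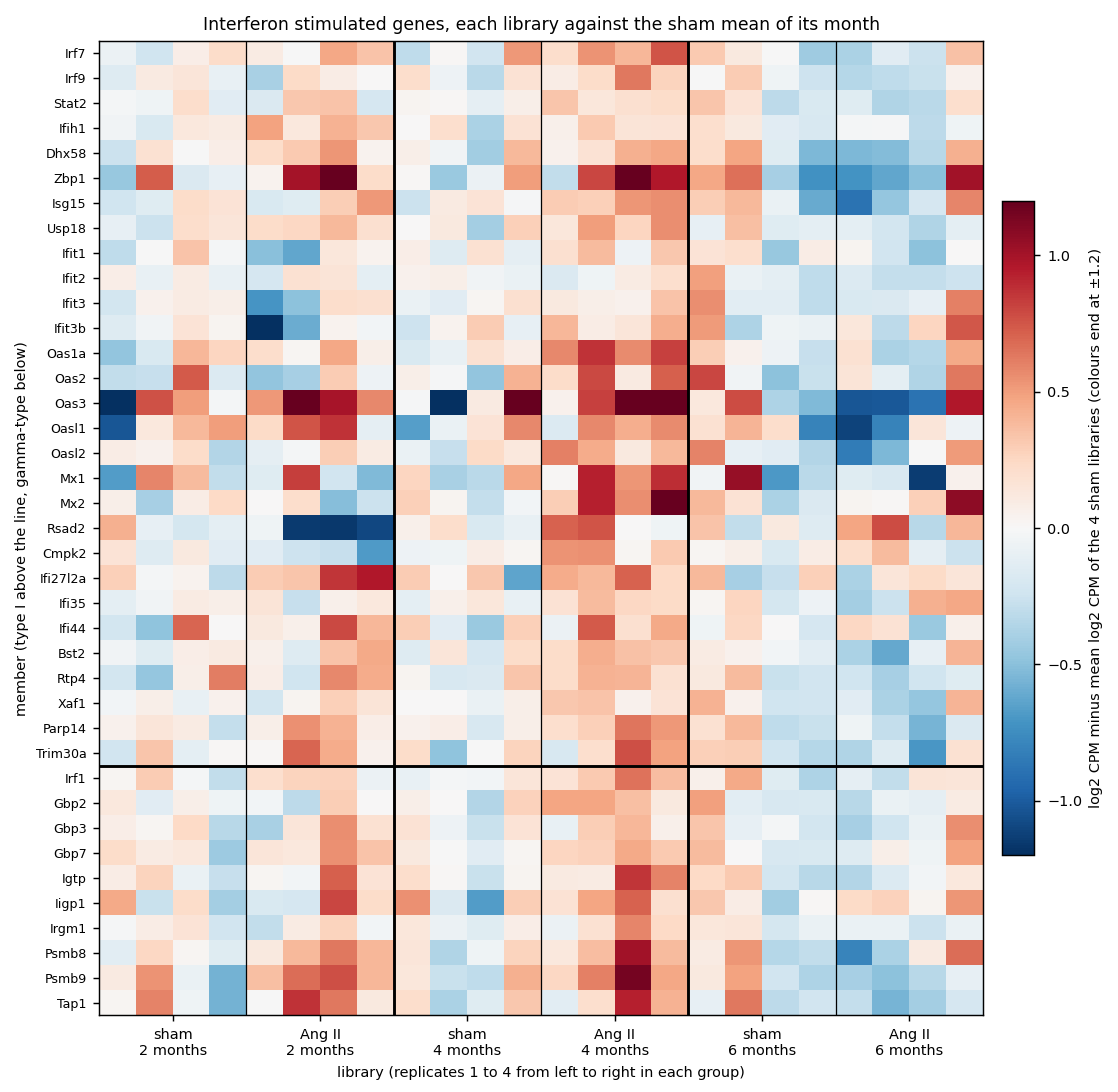
Each row is a member and each column a library. The colour is log2 CPM minus the mean log2 CPM of the 4 sham libraries of the same month, red above and blue below. The block of Ang II libraries at 4 months is mostly red, with replicate 1 blue in some members. The block at 2 months is mixed, with Rsad2 dark blue in 3 libraries. At 6 months 1 Ang II library, replicate 4, is red over 3 that are mostly blue.

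At 2 months, 32 of the 39 members had a higher estimate in Ang II than in sham aortas and 7 a lower one, but no member passed the test. The median log2 fold change was 0.19 over the members and 0.009 over all genes. edgeR with Benjamini-Hochberg adjustment over 16421 genes called 1.81% of all genes and 0 members, of which the smallest adjusted p was 0.181. DESeq2 and limma voom with library quality weights each called 1 member, Ifi27l2a, where they called 4.43% and 3.83% of all genes. At an unadjusted p under 0.05 there were 5 members (12.8%), 4 higher and 1 lower, against 10.8% of all genes, a share near the background. In 2 members the libraries of Ang II all lay above those of sham, which was so for 2.80% of all genes. Macrophage markers were also higher in Ang II libraries of 2 and 4 months (values below), their part in the results was not tested, and in bulk aorta more cells of a type cannot be told apart from more RNA per cell. Of 11 smooth muscle markers 10 were called lower after Ang II at 2 months, with a median of -1.95 and a summed level of 3682 to 6803 CPM in sham aortas, against 967 to 1839 CPM after Ang II. All 5 erythroid markers tested were below 0 (median -1.47), as were 14 of 16 airway epithelium markers (median -0.89). Their part in the results was not tested.

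Ifi27l2a was at 875, 704, 739 and 578 CPM in the sham libraries 1 to 4 and at 887, 905, 1298 and 1392 CPM in the Ang II libraries of 2 months. All Ang II libraries lay above all sham libraries, by a small step between the lowest of one and the highest of the other. The log2 fold change was 0.65 ± 0.19 (SE, n = 4 per group; edgeR adjusted p = 0.181). In the authors' deposited table for 2 months Ifi27l2a was the 1 member with an adjusted p under 0.05 (log2 fold change 0.64, adjusted p = 0.0283), where 3.98% of all genes had one.

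Ifih1 encodes the sensor MDA5, which detects long double-stranded RNA (chromosome 2, 62595798 to 62646255, minus strand). Its levels were 15.1, 13.6, 16.9 and 16.7 CPM in sham and 21.8, 16.9, 20.8 and 19.5 CPM in Ang II libraries of 2 months. The groups met at 16.9 CPM without overlapping, and the log2 fold change was 0.36 ± 0.11 (SE; edgeR adjusted p = 0.202). The other 2 sensors were also above 0: Dhx58, the relative of MDA5 called LGP2, at 0.30 ± 0.18 and Zbp1, which senses nucleic acid in the Z form, at 0.73 ± 0.39 on the log2 scale.

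Antigen processing had the highest median of the roles at 2 months, 0.41. Psmb8 and Psmb9 encode subunits of the immunoproteasome, which cuts proteins into peptides for MHC class I, and Tap1 encodes part of the pump that carries those peptides into the endoplasmic reticulum. All 3 lie within one stretch of chromosome 17. Psmb8 was at 36.9, 48.0, 41.1 and 36.6 CPM in sham and at 43.7, 52.8, 62.8 and 53.2 CPM in Ang II libraries (log2 fold change 0.41 ± 0.13, edgeR adjusted p = 0.261). Psmb9 was at 24.7, 33.3, 21.7 and 15.5 CPM in sham and at 29.4, 36.5, 39.1 and 30.3 CPM in Ang II libraries (0.53 ± 0.22, edgeR adjusted p = 0.421). In both genes the highest sham library lay inside the range of the Ang II libraries, so the groups overlapped. With B and plasma cell markers as a covariate Psmb8 was at 0.27 and Psmb9 at 0.26, and with macrophage markers Psmb9 was at 1.07. The mean of the macrophage markers did not overlap between the groups, which leaves the treatment poorly determined in that fit (values below). Tap1 was at 0.41 ± 0.28.

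Members of the Ifit family, RNA-binding proteins that block translation of viral messages, did not share this direction at 2 months: 1 of 4 was above 0, and the median was -0.17. Ifit3 was at 14.6, 17.6, 18.1 and 17.8 CPM in sham and at 10.4, 12.1, 19.6 and 19.4 CPM in Ang II libraries. The 2 lower Ang II libraries, replicates 1 and 2, were below all sham libraries and the other 2 were above them, with a log2 fold change of -0.13 ± 0.21. Irf7, the factor that amplifies type I interferon genes, was at 18.4, 16.4, 20.4 and 22.6 CPM in sham and at 20.6, 19.2, 26.7 and 24.5 CPM in Ang II libraries (0.25 ± 0.13). Isg15, a ubiquitin-like protein joined to other proteins, was at 5.78, 6.14, 7.91 and 7.63 CPM in sham and at 6.01, 6.16, 8.37 and 9.76 CPM in Ang II libraries (0.16 ± 0.20). Both groups overlapped in Irf7 and in Isg15.

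A pair of neighbours went the other way at 2 months. Rsad2 encodes viperin, a radical SAM enzyme that makes an antiviral nucleotide (chromosome 12, 26442746 to 26456452, minus strand), and Cmpk2 a mitochondrial nucleotide kinase (26469204 to 26479837, plus strand). They start 12752 bases apart and point away from each other, and were singled out after their values were seen. Rsad2 was at 29.8, 20.6, 19.1 and 20.4 CPM in sham and at 21.3, 10, 9.91 and 10.4 CPM in Ang II libraries. Ang II libraries 2 to 4 were far below every sham library, and Ang II replicate 1 lay within the sham range. The log2 fold change was -0.77 ± 0.28 (edgeR adjusted p = 0.324). Without Ang II replicate 1 it was -1.13 and passed the test, and without the 3 libraries rich in airway epithelium transcripts, of which that library is one, it was -1.23 and did not. Cmpk2 was at 18.2, 14.6, 17.6 and 14.7 CPM in sham and at 14.7, 13.6, 13.4 and 10.1 CPM in Ang II libraries, so that 1 Ang II library reached into the sham range (-0.30 ± 0.15, edgeR adjusted p = 0.538; -0.19 without Ang II replicate 4).

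**Figure D2:**
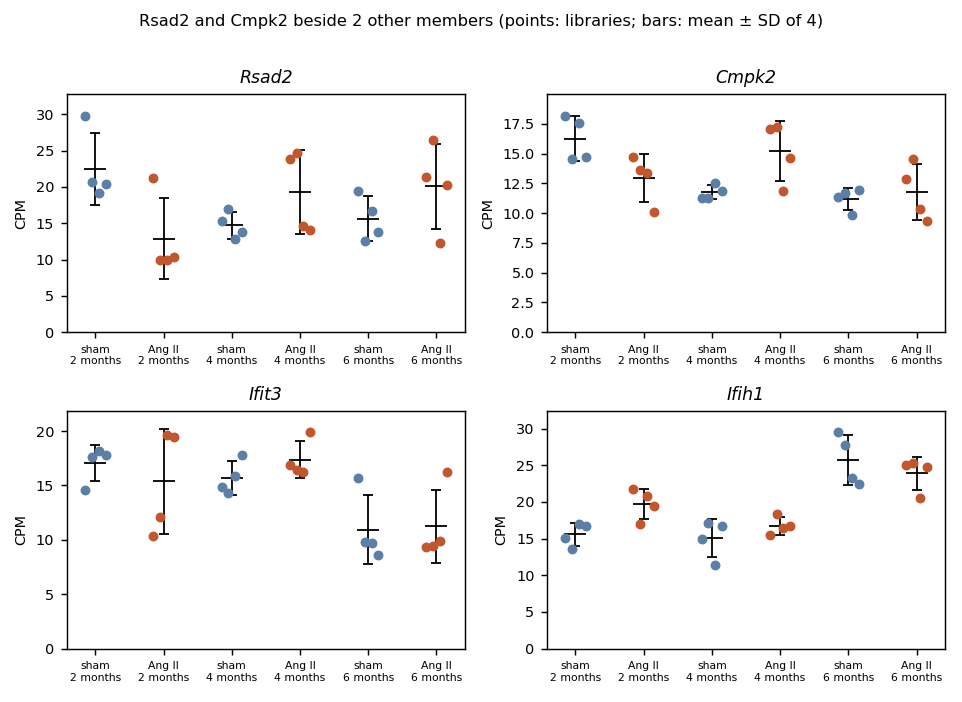
CPM of Rsad2, Cmpk2, Ifit3 and Ifih1 in each library by group, with sham in blue and Ang II in orange. Points are libraries and bars the mean ± SD of 4. Rsad2 and Cmpk2 have lower means in Ang II than in sham at 2 months and higher means at 4 months, with overlapping libraries at both times, while Ifih1 lies higher in Ang II at 2 months.

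At 4 months all 39 members had a higher estimate in Ang II than in sham aortas, with a median log2 fold change of 0.37, against 57% of all genes above 0 and a median of 0.04. The differences were small and none passed the adjusted test. The highest were those of Oas3 (0.92 ± 0.57), Mx2 (0.87 ± 0.31) and Zbp1 (0.86 ± 0.36), and the lowest that of Ifit2 (0.04 ± 0.11). Within the Ang II group replicate 1 was the lowest in 24 of 39 members, and replicate 3 the highest in 9 of 10 gamma-type members. All members share these libraries, so their common direction is not 39 separate results. edgeR called 0.707% of 16127 genes and 0 members, and the smallest adjusted p of a member was 0.0765. DESeq2 called 4 members (Irf1, Parp14, Gbp7 and Oas1a) and limma voom 3 of these, without Parp14, and the tools called 6.16% and 3.73% of all genes. At an unadjusted p under 0.05 there were 17 members, or 43.6%, all higher, against 6.61% of all genes that were higher at that level. In 9 members every Ang II library lay above every sham library (3.96% of all genes): Isg15, Stat2, Oas1a, Mx2, Ifi35, Bst2, Parp14, Irf1 and Gbp7. Overlap was counted on CPM scaled within the libraries of 4 months. In Bst2 and Mx2 the lowest Ang II and highest sham libraries nearly met, so their place here depends on the scaling. Mx2 also had few reads, 25 in Ang II replicate 1 and 26 in sham replicate 1. In the authors' deposited table for 4 months Oas1a, Gbp7, Parp14 and Irf1 had adjusted p of 0.00505, 0.00958, 0.0243 and 0.0312, and 5.6% of all genes had one under 0.05. Markers of these other cells had estimates off 0 at 4 months, and none passed the test. Of 16 airway epithelium markers 14 were above 0 (median 2.07), with a summed level of 52.5 to 1713 CPM in sham aortas, against 98.6 to 6600 CPM after Ang II, which overlap. All 5 erythroid markers tested were below 0 (median -1.48; 425 to 1493 CPM, against 187 to 473 CPM after Ang II), and so were all 11 smooth muscle markers (median -0.70; 804 to 2744 CPM, against 641 to 1024 CPM). Their part in the results was not tested.

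Among the factors, Irf1 (chromosome 11, 53770014 to 53778374) was at 42.5, 44.7, 44.4 and 50 CPM in sham and at 50.8, 56.3, 71.4 and 58.7 CPM in Ang II libraries of 4 months. The lowest Ang II library stood just above the highest sham library (log2 fold change 0.40 ± 0.10, edgeR adjusted p = 0.106). Stat2 was at 20.9, 20.6, 18.9 and 21.4 CPM in sham and at 25.7, 22.5, 23.3 and 23.9 CPM in Ang II libraries, again without overlap, though the difference was only 0.24 ± 0.08 (edgeR adjusted p = 0.200). Irf7 was at 13.1, 16.4, 13.8 and 23.3 CPM in sham and at 18.8, 23.7, 21.4 and 27.3 CPM in Ang II libraries. Its sham replicate 4 lay within the Ang II range (0.47 ± 0.20, edgeR adjusted p = 0.312).

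Oas1a encodes an oligoadenylate synthetase, which senses double-stranded RNA and makes the messenger that activates RNase L (chromosome 5, 120896256 to 120907521, minus strand). It was at 2.57, 2.74, 3.31 and 3.09 CPM in sham and at 4.34, 5.32, 4.31 and 5.15 CPM in Ang II libraries, a gap of about 1 CPM between the groups. The log2 fold change was 0.73 ± 0.17 (edgeR adjusted p = 0.0855). Its near copy Oas1g was at -0.12 ± 0.32. All 5 members of the Oas family were above 0, with 2 at an unadjusted p under 0.05, and so were both Mx genes, with 1.

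Isg15 (chromosome 4, 156199424 to 156200818), whose promoter has the 3 overlapping ISRE cores, was at 5.06, 6.56, 6.80 and 6.01 CPM in sham and at 7.52, 7.42, 8.78 and 8.94 CPM in Ang II libraries. The groups did not overlap (0.44 ± 0.14, edgeR adjusted p = 0.180). Parp14, an ADP-ribosyltransferase (chromosome 16, 35832874 to 35871544), was at 28.2, 28.7, 23.9 and 28.5 CPM in sham and at 31.4, 33.2, 42.5 and 39.1 CPM in Ang II libraries. The groups did not overlap here either (0.44 ± 0.11, edgeR adjusted p = 0.0972). Ifi27l2a was at 1245, 1007, 1259 and 647 CPM in sham and at 1369, 1316, 1643 and 1188 CPM in Ang II libraries. Sham replicates 1 and 3 exceeded the lowest Ang II library, so the non-overlap of 2 months was not seen again (0.43 ± 0.20, edgeR adjusted p = 0.353). Without sham replicate 4 its estimate was 0.25, and with macrophage markers as a covariate it was 1.12 at 4 months and 1.37 at 2 months. The treatment is poorly determined in both covariate fits, since the marker mean did not overlap between the groups (values below). Of the roles, the Ifit family had the lowest median at 4 months, 0.20, and Ifit3 was at 14.8, 14.3, 15.9 and 17.8 CPM in sham and at 16.9, 16.5, 16.2 and 19.9 CPM in Ang II libraries, which overlapped (0.17 ± 0.11).

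Rsad2 and Cmpk2 were on the side of the other members at 4 months. Rsad2 was at 15.3, 16.9, 12.8 and 13.7 CPM in sham and at 23.9, 24.7, 14.6 and 14.1 CPM in Ang II libraries. Ang II libraries 1 and 2 were above all sham libraries and 3 and 4 within their range (0.42 ± 0.22, edgeR adjusted p = 0.392; 0.27 without Ang II replicate 2). Cmpk2 was at 11.2, 11.3, 12.5 and 11.9 CPM in sham and at 17.1, 17.2, 11.9 and 14.6 CPM in Ang II libraries, in which the same libraries 1 and 2 were highest (0.40 ± 0.14, edgeR adjusted p = 0.231).

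Among the gamma-type members at 4 months, Gbp7 and Irf1 had the smallest p, and Psmb9, Psmb8 and Igtp the largest differences. Gbp7, a guanylate binding protein (chromosome 3, 142530342 to 142550149), was at 27.4, 25.2, 23 and 25.7 CPM in sham and at 30.1, 30.7, 34.7 and 31.4 CPM in Ang II libraries. The Ang II libraries all lay higher, and the spread within each group was narrow (0.35 ± 0.08, edgeR adjusted p = 0.0765). Gbp2 was at 40.6, 38.6, 30.3 and 46.6 CPM in sham and at 53.5, 53.5, 49.7 and 41.8 CPM in Ang II libraries, with overlap (0.37 ± 0.14). Psmb8 was at 48.0, 33.6, 41.7 and 52.1 CPM in sham and at 47.1, 55.9, 86.8 and 56.4 CPM in Ang II libraries (0.50 ± 0.19), and Psmb9 was at 28.3, 21.4, 20.9 and 34.6 CPM in sham and at 30.5, 39.1, 56.9 and 35.5 CPM in Ang II libraries (0.64 ± 0.22). In both, Ang II replicate 3 stood far above the rest, and without it Psmb8 was at 0.31 and Psmb9 at 0.45. The immunity related GTPases, which attack vacuoles of intracellular pathogens, were at 0.46 ± 0.18 (Igtp), 0.35 ± 0.25 (Iigp1) and 0.27 ± 0.13 (Irgm1).

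**Figure D3:**
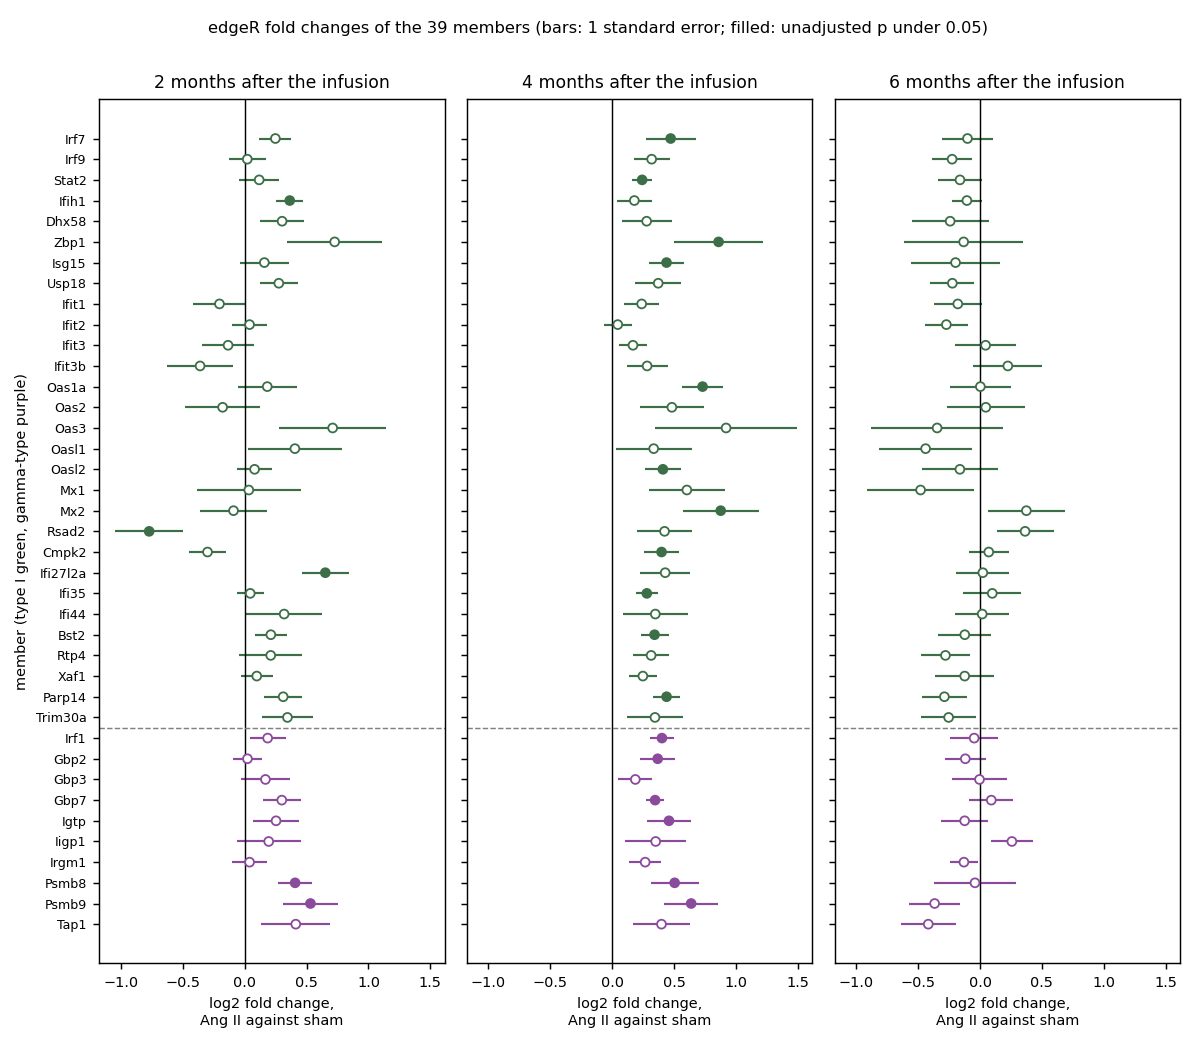
log2 fold changes of Ang II against sham for the 39 members at 3 times from edgeR, with bars of 1 SE. Type I members are green and gamma-type members purple, and filled points have an unadjusted p under 0.05. At 4 months all 39 points lie above 0 and 17 are filled, at 2 months 32 lie above 0 and 5 are filled, and at 6 months 12 lie above 0 and none is filled.

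Type I and gamma-type members differed little in these summaries. At 2 months 22 of 29 type I members and 10 of 10 gamma-type members were above 0, with medians of 0.16 and 0.22. At 4 months the medians were 0.35 and 0.38, and 11 of 29 and 6 of 10 had an unadjusted p under 0.05. All 7 members with a lower estimate at 2 months were of type I: Rsad2, Cmpk2, Ifit1, Ifit3, Ifit3b, Oas2 and Mx2. In the mean log2 CPM of each library at 4 months the groups nearly met without overlap for type I members. For gamma-type members they overlapped. The difference between the classes was not tested.

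With 2 and 4 months in one fit and the time as a term, 37 of 39 members were above 0 and the median was 0.29, against 0.02 for all genes. edgeR called 0.915% of 17153 genes and 0 members, and DESeq2 and limma voom called 5 members each, of which Psmb8, Parp14 and Psmb9 were called by both, where the tools called 4.06% and 2.49% of all genes. At an unadjusted p under 0.05 there were 20 members (51.3%), all higher, against 7.19% of all genes. The smallest adjusted p were those of Parp14 (0.37 ± 0.09, edgeR adjusted p = 0.0703), Psmb8 (0.45 ± 0.12, edgeR adjusted p = 0.0850), Gbp7 (0.32 ± 0.09, edgeR adjusted p = 0.0890), Ifi27l2a (0.53 ± 0.15, edgeR adjusted p = 0.0911) and Psmb9 (0.58 ± 0.16, edgeR adjusted p = 0.0937). The nucleic acid sensors and the antigen processing genes each had 3 of 3 members at that level, and the Ifit family had 0 of 4. In this fit 8 of 18 macrophage markers were called higher, and 3 of 11 smooth muscle markers and 5 of 6 erythroid markers lower. Their part in the result was not tested.

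**Figure D4:**
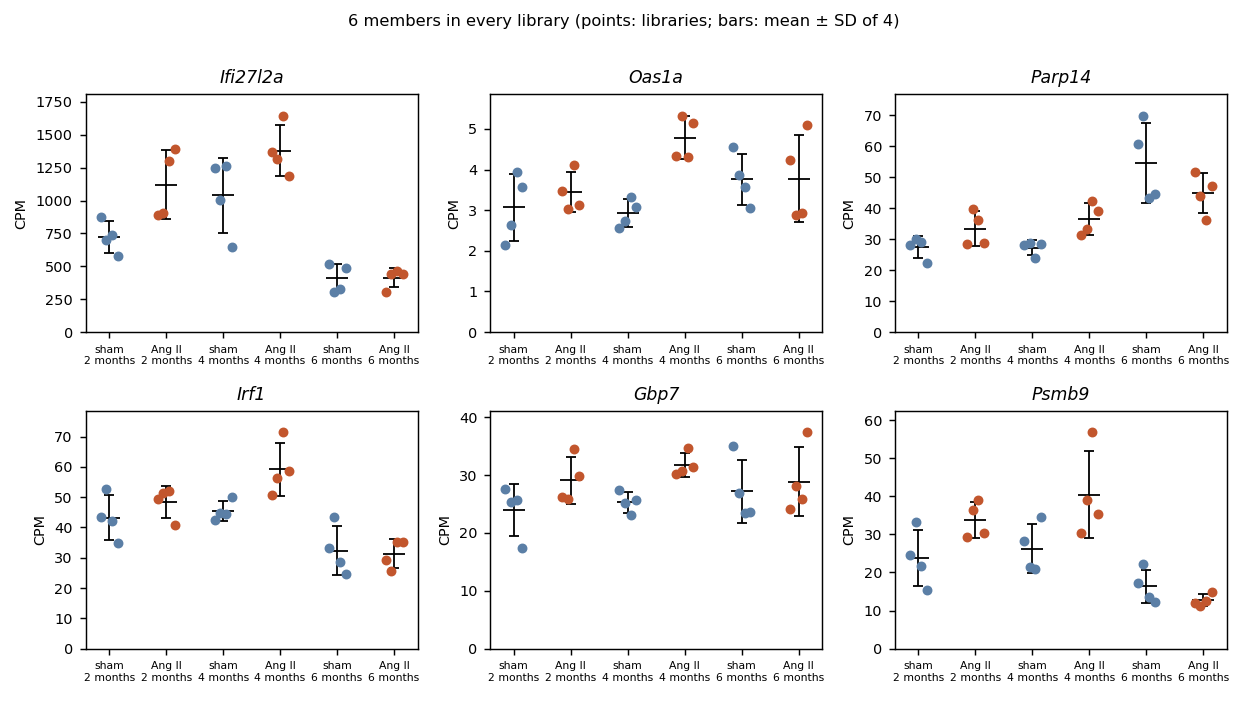
CPM of 6 members in each library by group, with sham in blue and Ang II in orange. Points are libraries and bars the mean ± SD of 4. In Oas1a, Parp14, Irf1 and Gbp7 all Ang II libraries of 4 months lie above all sham libraries of 4 months, and at 6 months the groups overlap in all 6 genes.

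Change of the Ang II effect over the 3 times was tested as an interaction. The 6-month libraries, which are of another kind, enter the spread of this fit, also for the change from 2 to 4 months. A difference between the effects at 6 months and at earlier times cannot be told apart from the kind of library. edgeR called 0.536% of 19218 genes and 0 members, and 5 members (12.8%) had an unadjusted p under 0.05, against 11.9% of all genes. DESeq2 called 0 members and limma voom 3 (Cmpk2, Rsad2 and Bst2), against 2.83% and 4.1% of all genes. Rsad2 had the smallest p of the members (edgeR adjusted p = 0.190), with an effect that was 1.2 higher on the log2 scale at 4 than at 2 months, and Cmpk2 came next (edgeR adjusted p = 0.243), with one 0.70 higher. Parp14, Psmb9 and Usp18, the protease that removes Isg15, were the others, and their effects were lower at 6 than at 4 months. Without Ang II replicate 1 of 2 months the edgeR adjusted p of Rsad2 was 0.0378. Whether Rsad2 was called thus turned on that library in edgeR, and also on the tool.

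Rsad2 and Cmpk2 were also compared between 2 and 4 months within each treatment. In sham aortas, 4 against 2 months, both genes had estimates below 0: Cmpk2 at -0.50 ± 0.11 (edgeR adjusted p = 0.0965) and Rsad2 at -0.64 ± 0.16 (edgeR adjusted p = 0.119). They were the only members with an unadjusted p under 0.05 there, against 10.8% of all genes that were lower at that level. edgeR called 0 members and 0.00619% of 16144 genes, DESeq2 called both genes and limma voom Cmpk2, where they called 5.28% and 4.96% of all genes. Smooth muscle markers had a median of -2.01 in this comparison, airway epithelium markers one of -2.36 and erythroid markers one of 1.44, with no marker called, and their part in the result was not tested. In Ang II aortas over the same interval 34 of 39 members were above 0 with a median of 0.21, and all genes had a median of 0.02. edgeR called 0 members and 0.00611% of 16367 genes, and DESeq2 and limma voom 0 members (1.63% and 0.122% of all genes). In that comparison 4 members (4.97% of all genes were higher at an unadjusted p under 0.05) passed the unadjusted level: Oas1a (0.49 ± 0.17), Ifi35 (0.27 ± 0.10), Irf1 (0.30 ± 0.12) and Ifit1 (0.47 ± 0.20). Rsad2 was at 0.60 ± 0.31 and Cmpk2 at 0.24 ± 0.17. These comparisons share libraries with those of Ang II against sham, and time cannot be told apart from anything else that differed between the harvests.

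At 6 months the direction of the earlier times was not seen: 12 members were above 0 and 27 below, and the median log2 fold change was -0.12 (all genes -0.03). edgeR called 0 members and 0% of 19343 genes, 0 members had an unadjusted p under 0.05 (5.05% of all genes), and in 0 members did the groups not overlap (3.12% of all genes). DESeq2 and limma voom also called 0 members (0.326% and 0% of all genes). With macrophage markers as a covariate 29 members were above 0 (median 0.11), and with B and plasma cell markers 22. The smallest unadjusted p were those of Tap1 and Psmb9. Tap1 was at 32.1, 53.3, 27.5 and 29.2 CPM in sham and at 28.1, 23.3, 25.8 and 29.8 CPM in Ang II libraries (-0.42 ± 0.22). Psmb9 was at 17.3, 22.2, 13.6 and 12.3 CPM in sham and at 12, 11.3, 12.6 and 14.9 CPM in Ang II libraries (-0.37 ± 0.21). In both genes sham replicates 1 and 2 lay above all Ang II libraries and sham replicates 3 and 4 within their range. Without sham replicate 2 Tap1 was at -0.14 and Psmb9 at -0.16. For the type I class they were Parp14 and Ifit2. Parp14 was at 60.7, 69.8, 43.4 and 44.5 CPM in sham and at 51.7, 44.0, 36.3 and 47.3 CPM in Ang II libraries (-0.29 ± 0.18; -0.13 without sham replicate 2). Ifit2 was at 14.6, 9.81, 9.55 and 8.41 CPM in sham and at 9.22, 8.52, 8.48 and 8.71 CPM in Ang II libraries (-0.27 ± 0.17), and its sham replicate 1 stood apart (-0.11 without it). In the authors' deposited table for 6 months 0 members had an adjusted p under 0.05, and 0.298% of all genes did.

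The 6-month libraries differed more within the groups than between them. Sham replicates 1 and 2 held the highest value of their group in 18 and 20 members, replicates 3 and 4 in 0 and 1. Among the Ang II libraries, replicate 4 was the highest in 28 of 39 members. The mean log2 CPM of the type I members was 3.39, 3.32, 2.95 and 2.88 in sham replicates 1 to 4, against 2.90, 2.89, 2.87 and 3.43 after Ang II, so that 3 libraries, from both groups, lay apart from the other 5. Macrophage markers were highest in the same 3 libraries, with mean log2 CPM of 4.58, 4.51, 4.01 and 4.08 in sham replicates, against 3.89, 4.01, 3.85 and 4.43 after Ang II. Of these libraries, sham replicate 1 and Ang II replicate 4 had the highest mitochondrial shares of the 8, 59.31% and 52.86%, and the lowest TMM factors, 0.532 and 0.345, while sham replicate 2 had the lowest share, 31.75%, and the highest factor, 0.917. The part of these in the result was not tested. Without Ang II replicate 4 only 6 members were above 0.

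The rest of the pathway was measured from lists of ligands, receptors, transducers, brakes, sensors and other targets. Of 21 interferon genes 9 were in the count table. Ifnb1 had 1 read in all, in 1 Ang II library of 4 months, and Ifng, the gene of interferon gamma, had 49 reads over the 24 libraries and at most 7 in one, too few for a test. The receptors were abundant, and no receptor gene passed the test at any time. At 4 months the values were 0.08 ± 0.10 for Ifnar1, -0.22 ± 0.08 for Ifnar2, 0.07 ± 0.10 for Ifngr1 and -0.01 ± 0.08 for Ifngr2. Irf8, a factor of myeloid and B cells, was at 13.1 ± 11.8 and 28.5 ± 21.8 CPM (SD, n = 4) in sham and Ang II aortas at 2 months and at 20.2 ± 9.18 and 38.8 ± 31.7 CPM at 4 months, with a wide spread within each group.

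Other targets of interferon, which are no members, lay on the same side as the members at 4 months. Of 28 other type I targets 26 were above 0 (median 0.29), and of 29 other gamma-type targets measured 28 were (median 0.34), but no gene of either list passed the test at 2, 4 or 6 months. With 2 and 4 months together, 4 genes of the pathway lists passed, all higher, against 0.915% of all genes called: Trafd1, a negative regulator of innate signalling (0.29 ± 0.05, edgeR adjusted p = 0.00717), Psmb10, the third immunoproteasome subunit (0.35 ± 0.07, edgeR adjusted p = 0.0305), Tap2, the partner of Tap1 (0.31 ± 0.07, edgeR adjusted p = 0.0326), and Tlr7, the receptor for single-stranded RNA (0.94 ± 0.20, edgeR adjusted p = 0.0371). They were among 6 receptors, 8 transducers, 8 brakes, 17 sensors, 28 type I targets and 30 gamma-type targets tested. At 6 months 2 of 28 other type I targets and 9 of 30 other gamma-type targets were above 0.

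Macrophage markers moved with the groups at 2 and 4 months. The summed level of 18 macrophage markers was 424 to 679 CPM in sham and 666 to 1034 CPM in Ang II libraries at 2 months. At 4 months it was 411 to 662 CPM and 758 to 1229 CPM, with no overlap, and none of the 18 was at 0 in a whole group. At 6 months it was 813 to 1319 CPM in sham and 750 to 1169 CPM in Ang II libraries. At 2 months 5 of the 18 passed the test, Adgre1, Cd68, Trem2 and Ms4a7 higher and Mertk lower (-0.74, edgeR adjusted p = 0.0346), and 16 were above 0. At 4 months 3 (Cd68, Trem2 and Ms4a7) passed the test, all higher, and 17 were above 0. With the mean log2 CPM of these markers as a covariate, 18 of the 39 members were above 0 at 4 months and the median was -0.12. The groups did not overlap in that marker mean at 4 months (3.35 to 4.01 in sham, 4.38 to 4.70 after Ang II). Nor did they at 2 months (3.52 to 4.07, against 4.20 to 4.52). Groups that do not overlap in the covariate leave the treatment poorly determined in the fits of both times. In the fit of 4 months Gbp7 was at 0.15, Irf1 at 0.20, Stat2 at 0.16 and Parp14 at 0.23. Oas1a was at 0.69, Isg15 at 0.76, Rsad2 at 0.38 and Cmpk2 at 0.42, while Psmb9 was at -0.34, Irf7 at -0.22, Gbp2 at -0.19, Psmb8 at -0.14 and Ifit3 at -0.02.

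The summed level of 13 B and plasma cell markers at 4 months was 457 to 2514 CPM in sham aortas, against 636 to 2053 CPM after Ang II, with wide overlap, and with their mean as a covariate all 39 members were still above 0 with a median of 0.35. At 2 months it was 172 to 1191 CPM in sham aortas, against 445 to 2449 CPM after Ang II, and 25 members were above 0 in that fit, against 27 with the macrophage covariate. For 19 T and NK cell markers the 4-month ranges were 48.2 to 149 CPM and 39.5 to 285 CPM. Plasmacytoid dendritic cells, a main source of type I interferon, were represented by 7 markers that are no members, at 171 to 247 CPM in sham and 177 to 253 CPM in Ang II libraries of 4 months. The mean log2 CPM of these markers was only 2.25 to 3.08 and 1.97 to 3.54. Few of them thus made up most of the sum, which cannot be read as the level of these cells. Without the 3 libraries rich in airway epithelium transcripts 35 members were above 0 at 2 months, with a median of 0.28. The part of these cell types in the results was not tested.

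**Figure D5:**
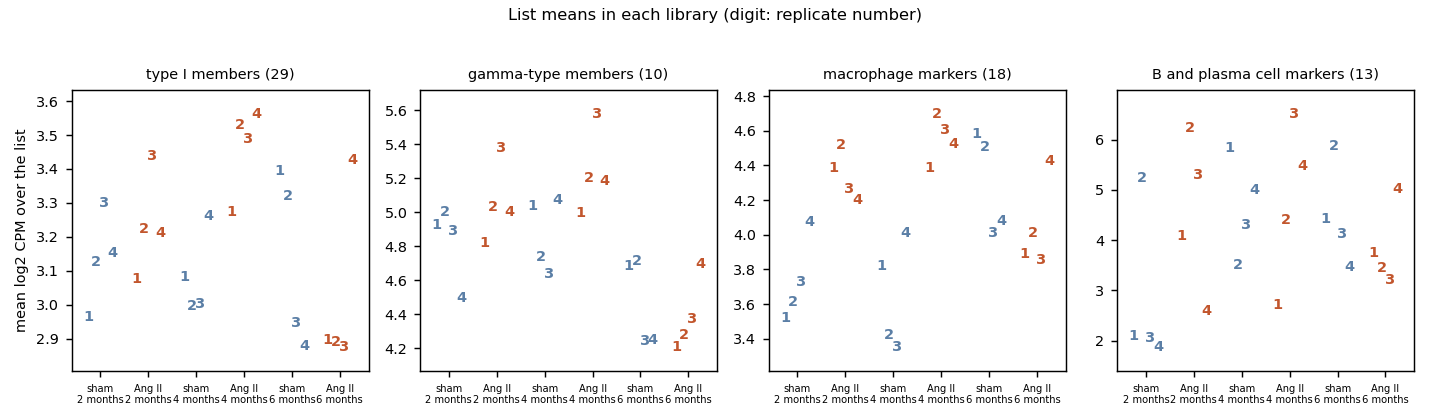
Mean log2 CPM of the type I members, the gamma-type members, the macrophage markers and the B and plasma cell markers in each library, with the digit giving the replicate number, sham in blue and Ang II in orange. At 4 months all 4 Ang II libraries lie above all sham libraries for type I members (3.27 to 3.56 against 3 to 3.26) and for macrophage markers (4.38 to 4.70 against 3.35 to 4.01).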

How the data were processed

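RNA from 24 aortic homogenates was made into mRNA libraries, per the labels' protocols. The authors deposited whole-number counts for 37606 genes. Their comparison tables, 1 per time, hold, per the file headers, the same counts, a mean of scaled counts (a signal), a log2 fold change, its standard error and test statistic (a score), a p-value, an adjusted p-value and a fold change as a ratio. The build mm10 and the tools STAR, featureCounts, DESeq2, cutadapt and FastQC were used per the submitters' processing notes. Annotation, strand setting and the handling of shared reads were not stated in the sources used here. Each count column matched the title of 1 sample.

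Counts were tested in edgeR 4.0.16 (R 4.3.3) with filterByExpr (minimum count 10, total 15), TMM scaling, the quasi-likelihood F test and Benjamini-Hochberg adjustment over all genes at 0.05. Each Ang II against sham comparison used the 8 libraries of its time, 2 and 4 months together used 16 with time as a term, the interaction used all 24, and 4 against 2 months used the 8 libraries of 1 treatment. CPM are TMM-scaled over all 24 libraries, and non-overlap of groups was counted on CPM scaled within each time. The depth of 19.16 to 58.68 (in 1e6 counts) limits the precision of the members with few counts. The script was tested on simulated counts. No 2 libraries of a group agreed within sampling noise.

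The members and all lists were chosen with earlier results of these data known. Values of every library are given, at 1 or more times, for the 2 members of each class with the smallest p at each time and for Isg15, Ifit3, Irf7, Stat2, Irf1, Gbp2 and Psmb8, and, chosen after their values were seen, for Rsad2 and Cmpk2. Genes of the pathway lists are named where called, and Ifnb1, Ifng, Ifnar1, Ifnar2, Ifngr1, Ifngr2 and Irf8 always. 1 further gene of that rule is not reported here. Roles were grouped for description. The labels do not say that replicate numbers pair the samples, and the main fits were unpaired. Alternatives were DESeq2 1.42.0, its size factors in edgeR, limma 3.58.1 voom with library quality weights, no low-count filter, mitochondrial and ribosomal RNA genes removed, all libraries in 1 fit, a replicate block, each library left out, 3 libraries rich in airway transcripts left out, and macrophage or B cell markers as a covariate (the last chosen after seeing the data). Promoters came from RefSeq, and shared 50-base stretches from GENCODE M21 exons.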

Additional observations from a re-analysis of the deposited data

Results flagged for a closer look

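The values of 17 members in 6 groups of 4 libraries, 102 sets in all, were searched for a single library whose gap to the nearest of the other 3 took most of the range of the group, past the 95% critical value of Dixon's test. There were 9 such sets. Chance gives about 1 in 20 for independent sets. These sets share libraries, and some members were chosen after their values were seen, so that rate is no measure of their number.

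Ifit3 had 3 of them. Replicate 4 of Ang II at 6 months was at 16.2 CPM where the others lay between 9.34 and 9.94 CPM, replicate 1 of sham at 6 months was at 15.6 CPM where the others lay between 8.61 and 9.76 CPM, and replicate 1 of sham at 2 months was at 14.6 CPM, below the others at 17.6 to 18.1 CPM. The first 2 are the libraries of 6 months that were high over many members. Replicate 1 of sham at 6 months was also high in Gbp2, at 57.9 CPM against 36.0 to 37.6 CPM.

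Rsad2 had 2. Replicate 1 of Ang II at 2 months was at 21.3 CPM against 9.91 to 10.4 CPM, and replicate 1 of sham at 2 months at 29.8 CPM against 19.1 to 20.6 CPM.

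The other 3 were low values in single members. Ifi27l2a was at 306.5 CPM in replicate 1 of Ang II at 6 months, against 438.6 to 464.8 CPM. Ifih1 was at 20.6 CPM in replicate 3 of that group, against 24.8 to 25.3 CPM. Parp14 was at 23.9 CPM in replicate 3 of sham at 4 months, against 28.2 to 28.7 CPM.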

How the results depend on the processing

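Of 765 recomputed values 727 kept their direction and side of the threshold, or stayed within 1.5 times or 1 SD of the value given. These limits were wide, and uncalled members that stayed uncalled counted as kept. So did the 6-month median, which went from -0.12 to 0.11 with the macrophage covariate, since the SD there was 0.26. That share is thus no measure of how firm the results are. DESeq2 called 1 member at 2 months, 4 at 4 months, 5 over both times and 2 in sham at 4 against 2 months. limma voom with quality weights called 1, 3, 5 and 1 in the same comparisons, and 3 in the change over time. With macrophage markers as covariate 18 members were above 0 at 4 months (median -0.12), 29 at 6 months and 23 at 2 and 4 months together (median 0.0825, with 1 member called, Ifi27l2a), and Irf7 (-0.22), Gbp2 (-0.19), Psmb8 (-0.14), Psmb9 (-0.34) and Ifit3 (-0.0183) turned below 0 at 4 months. With B and plasma cell markers 22 members were above 0 at 6 months. The cause was not tested, and the mean of the macrophage markers did not overlap between sham and Ang II at 2 or 4 months. Leaving out each replicate in turn gave 0 to 1 members called at 2 months (Rsad2 without Ang II replicate 1), at 2 and 4 months together (Psmb9 without sham 2 months replicate 2) and for the change over time (Rsad2 without Ang II replicate 1 of 2 months), and 0 elsewhere. At 2 months 28 to 33 members then stood above 0 (medians 0.10 to 0.25), at 4 months 38 to 39 (0.33 to 0.43), at 6 months 6 to 18 (-0.25 to -0.03) and over both times 34 to 38 (0.23 to 0.30). The replicate block called 0 members in each comparison, with 32, 39 and 11 members above 0 at 2, 4 and 6 months and 37 at 2 and 4 months together. Correlations of same-numbered libraries were -0.27 to 0.49 at 2 months, -0.26 to 0.32 for 4 and -0.16 to 0.53 for 6 months. Such mixed values show no pairing by number, but with 4 numbers per time they cannot exclude it. Depth limits members with few counts, such as Oas3, Mx1, Mx2 and Oasl1.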
